A study of Mus musculus with 6 samples.

Results

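Tfrc, the gene of transferrin receptor 1, was followed in the liver of mice shortly before birth and as adults. It was taken as the probe whose accession in the scanner output is the RefSeq mRNA of Tfrc, which gave 1 probe among the 15 that carry such an accession, of 60915 probes in all. The gene was chosen because its signal differed between the 2 ages in these arrays, so its levels are given as a description, with no test. Liver total RNA of C57BL/6 mice, bought from a supplier per the labels, was hybridised to single-colour (Cy3) arrays designed for long noncoding RNA, 1 array per sample. The prenatal group held 3 arrays labelled E18 (another label of the same samples gives E18.5), and the adult group held 3 arrays of animals of 2 months. The series states that the RNA came from 3 different animals. No genetic change, transgene or treatment is named for either group. The tissue field of the prenatal samples reads embryo, whereas their titles and source names say liver.

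Transferrin receptor 1 is a membrane protein that binds iron-loaded transferrin at the cell surface and carries it into endosomes, where the iron is released for the cell's use. Iron-responsive elements in its messenger RNA let iron regulatory proteins stabilise the message when the cell is short of iron. Erythroid precursors, which need iron for haem, carry a large amount of the receptor. The fetal liver is a site of red cell formation, which moves to the bone marrow around birth, and proliferating cells of many kinds also express the gene. Tfrc is also used as a reference gene in expression studies.

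An Ets-type motif next to a motif like the cyclic AMP response element has been tied to the activity of the Tfrc promoter in erythroid cells. The stretch that holds both is shown because it is a promoter element described for this gene, although the arrays measured no promoter. In the RefSeq table of build GRCm38.p6 it lies at chr16:32608894-32608923 on the plus strand, with the motif's first base 8 bases after the first base of the first annotated start of Tfrc and 218 bases before that of the second.
Tfrc promoter: acgtgcggaaGGAAGTGACGTagatccaga
Capitals mark GGAAGT joined to TGACGT, which share the T between them. Searched on both strands of 32851 windows of 300 bases (250 before and 50 after each annotated start), GGAAGT was found in 23.8% of windows, TGACGT in 7.51% and the joined motif in 0.259%. A match in letters is a description and shows no binding.

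The 6 arrays carried 62939 features each, and 45.1% to 60.5% of the 61500 spots that the files do not mark as controls lay well above background. Over the 32336 probes tested, Pearson correlations across probes, which are not independent replicates, were 0.893 to 0.983 among prenatal, 0.967 to 0.983 among adult arrays and 0.71 to 0.846 between the groups. Prenatal replicate 1 was the least like its group, at 0.893 and 0.915. With 3 arrays per age, their number limits how precise any value can be.

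The Tfrc probe was bright on all 6 arrays and brighter before birth. Its median processed signal over 20 spots, in scanner units before any scaling, was 22073 on prenatal replicate 1, 45261 on prenatal replicate 2 and 20897 on prenatal replicate 3. On adult replicates 1, 2 and 3 it was 3093, 1588 and 1526. Even the dimmest prenatal array was therefore above the brightest adult array before scaling. Every spot was well above background on every array and none was saturated. The brightest Tfrc spot reached 5.99% of the scanner's saturation value, on prenatal replicate 2. The local background of the Tfrc spots was 21 to 29 units over all arrays. The adult signal was thus far from the floor of the scale, and the fold below is a ratio of 2 measured levels.

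The arrays also differed in brightness as a whole. The 75th percentile of the processed signal, by which each array was scaled, was 151.9 on prenatal replicate 2, the brightest array, and 73.7 and 83.1 on prenatal replicates 1 and 3. It was 114.3, 69.4 and 78.4 on adult replicates 1, 2 and 3. The SD of the log2 signal of Tfrc between arrays was 0.62 in prenatal and 0.57 in adult liver before scaling, and 0.15 and 0.23 after it.

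On the scaled axis, the log2 signal of Tfrc relative to the array's 75th percentile was 8.23, 8.21 and 7.97 on prenatal replicates 1, 2 and 3. On the adult arrays it was 4.75, 4.51 and 4.28. The prenatal values lay together near 8 and the adult values between 4 and 5, with no overlap. All 3 prenatal arrays lay above all 3 adult arrays in 20.5% of all tested probes, a background from which nothing is read for a gene chosen on this contrast. The prenatal mean was 8.14 ± 0.15 (SD, n = 3). The adult mean was 4.52 ± 0.23 (SD, n = 3). The log2 difference, adult minus prenatal, was -3.62 with a standard error of 0.16, which is a 12.3-fold higher level before birth. It was 18.6 times the pooled SD between arrays of a group, 0.19.

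The smallest gap between the groups was also large. From the lowest prenatal array (replicate 3) to the highest adult array (replicate 1) it was 3.22 on the log2 scale, or 9.30-fold. Over the 9 pairings of an adult with a prenatal array, the fold ran from 9.30 to 15.4. The adult arrays spanned 1.38-fold among themselves and the prenatal arrays 1.20-fold. In total RNA of a whole organ, fewer cells of a type and less message per cell cannot be told apart.

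**Figure D1:**
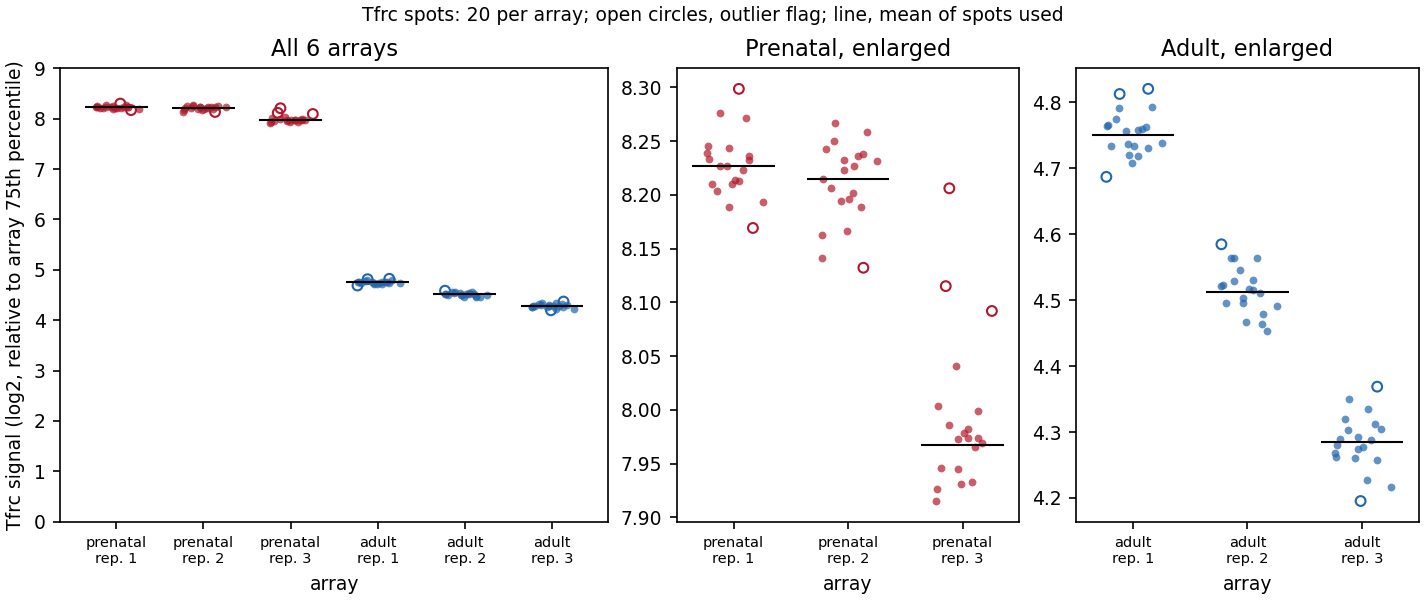
Log2 signal of each Tfrc spot relative to its array's 75th percentile, by array, for prenatal (red) and adult (blue) liver, with all arrays at left and each group enlarged on its own axis. Open circles are spots with an outlier flag, and lines are the means of the spots used, between 7.97 and 8.23 for prenatal and between 4.28 and 4.75 for adult arrays.

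The 20 spots allowed the measurement error within an array to be read. They were spread over rows 15 to 379 of 384 and columns 5 to 154 of 164. Outlier flags fell on 12 of the 120 spots, 2, 1 and 3 on prenatal and 3, 1 and 2 on adult replicates 1, 2 and 3, and these spots were left out. The SD of the log2 signal over the spots used was 0.024 to 0.034 per array. The spread between arrays of a group was 5.96 times the median spread between spots. The repeated spots thus narrow the error of each array but add no replicate of an age.

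No spot of a prenatal array came near an adult spot. The lowest prenatal spot, flagged ones included, was at 7.92 and the highest adult spot at 4.82, a distance of 8.54-fold. Taken 1 spot position at a time over the 6 arrays, the log2 difference, adult minus prenatal, was between -3.69 and -3.57 at all 20 positions. The 10 spots in the upper rows and the 10 in the lower rows both gave -3.63. The largest deviation was a flagged spot of prenatal replicate 3 at 8.21, on an array whose mean was 7.97. Keeping the flagged spots moved the difference by less than the spread between arrays, to -3.63.

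The Tfrc probe stood nearer the top of the brightness of prenatal than of adult arrays. Brightness depends on a probe's own binding, so these ranks are not an order of abundance between genes. On prenatal replicates 1, 2 and 3, 715, 549 and 694 probes were brighter than Tfrc, which is 1.17%, 0.901% and 1.14% of all probes with a value. On adult replicates 1, 2 and 3, 3494, 3698 and 3851 probes were brighter, which is 5.74%, 6.07% and 6.33%. The ranks need no scaling between arrays, and the 2 groups did not overlap in them. Nothing is read from this for a gene chosen on this contrast. On the scaled values, 20.5% of tested probes had all 3 prenatal arrays above all 3 adult arrays, and no such share was computed for ranks.

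**Figure D2:**
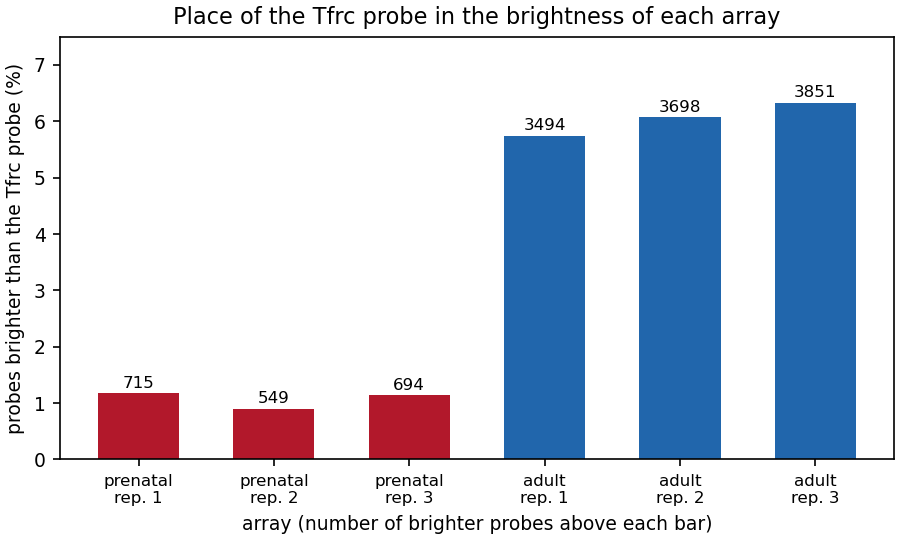
Percentage of probes brighter than the Tfrc probe on each array, for prenatal (red) and adult (blue) liver, with the number of such probes above each bar. The prenatal bars lie between 0.901% and 1.17% and the adult bars between 5.74% and 6.33%.

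The comparison of the ages asked which transcripts differ between prenatal and adult liver, and the change of Tfrc was placed among all of them. With limma, 8987 of the 32336 tested probes (27.8%) differed at an adjusted p under 0.05. Of the tested probes, 3866 (12.0%) were called as higher in prenatal liver and 5121 as higher in adult liver. The limma count was 5697, 5313 and 5387 without adult replicates 1, 2 and 3. By size alone, 791 probes had a lower log2 difference than Tfrc, so that Tfrc stood at place 792 from the most prenatal end, or within the first 2.45%. That share was 1.19% among probes above background on all 6 arrays, 1.32% among all probes without a filter and 0.622% with a normexp background correction. Over the 9 pairings of single arrays it ran from 1.77% to 6.95%. In either direction, 1539 probes (4.76%) had a larger absolute difference, 748 of them toward the adult. Over all tested probes, the log2 difference had a median of 0.06 and the absolute difference a median of 0.73. The change of Tfrc was thus large for these arrays, yet many probes without a gene name changed more.

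The change of Tfrc was also placed among bright probes. Of 623 other probes that were at least as bright as Tfrc in prenatal liver on average, 21 had a lower log2 difference. That is a larger share than the 2.45% of all tested probes, and the median difference of the 623 was -0.11. Of 712 other probes within 0.5 of its mean log2 signal over all arrays, 6 had a lower difference, a smaller share than 2.45%. The spread of Tfrc between arrays was modest. Its pooled SD of 0.19 was undercut by 10.2% of all tested probes and by 21.2% of the 712, whose median was 0.33. The Tfrc value was a mean of 17 to 19 spots per array, whereas most other probes rested on a single spot. These spreads are therefore not of like measurements. In the gap between the lowest prenatal and the highest adult array, 436 probes (1.35%) exceeded Tfrc.

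**Figure D3:**
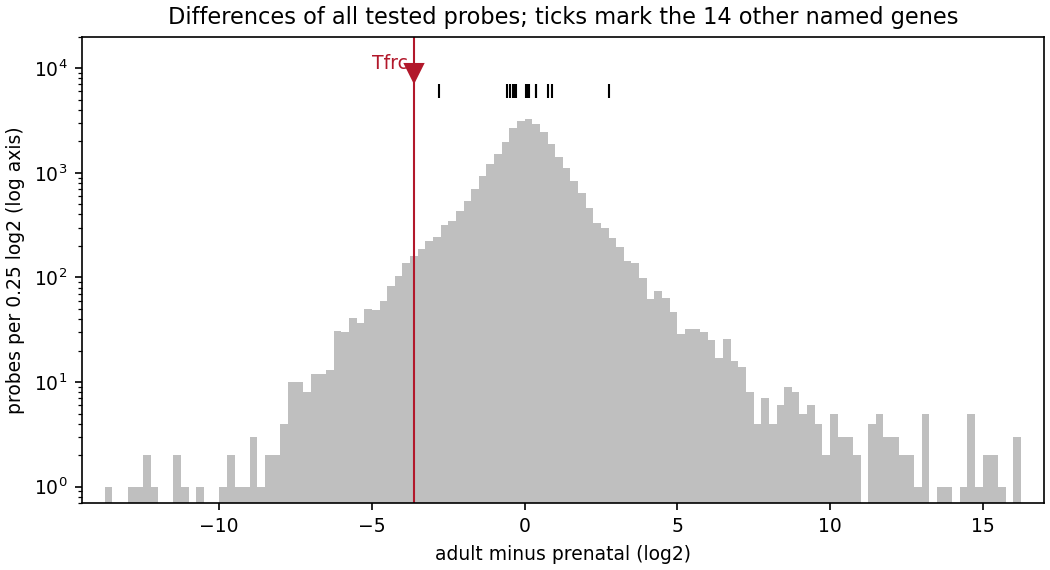
Number of tested probes by log2 difference, adult minus prenatal, in steps of 0.25 (log vertical axis). The red line and triangle mark Tfrc at -3.62, and the ticks mark the other 14 genes with a named probe, of which Tuba1b at -2.79 and B2m at 2.75 lie farthest out.

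Tfrc had the lowest log2 difference of the 15 genes with a named probe. By the root mean square distance between log2 values centred on each gene's mean over the 6 arrays, the gene most like it was Tuba1b, an alpha tubulin, at 0.47. Hprt, a purine salvage enzyme, followed at 1.54 and G6pd2, a glucose-6-phosphate dehydrogenase, at 1.59. Their own log2 differences were small, at -0.57 and -0.47, and the median distance over all other probes was 1.91. Of those probes, 302 were closer to Tfrc than Tuba1b. B2m, which encodes beta-2 microglobulin of MHC class I, was the least alike at 3.20. The distance follows mainly the difference between the 2 groups.

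Tuba1b shared the direction but not the pattern within the prenatal group. Its log2 signal was 10.70, 9.97 and 10.14 on prenatal replicates 1, 2 and 3, and 7.56, 7.63 and 7.24 on the adult arrays. Tuba1b was thus highest on prenatal replicate 1, the array least like its group, and exceeded the next prenatal array by 0.56. For Tfrc, prenatal replicates 1 and 2 were close and replicate 3 was the lowest. The log2 difference of Tfrc minus that of Tuba1b was -0.83.

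**Figure D4:**
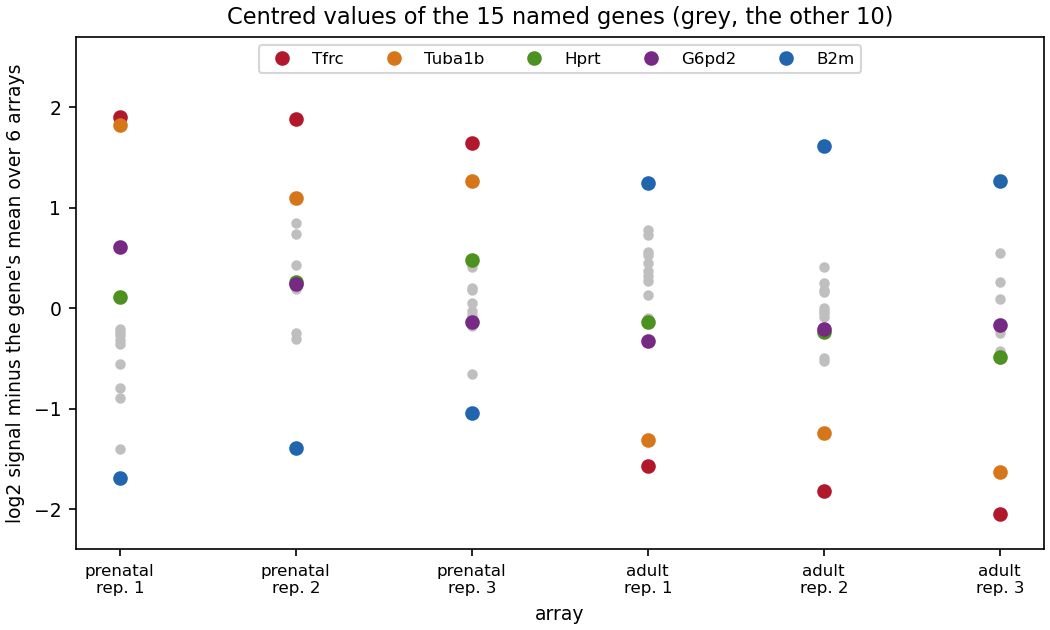
Log2 signal of the 15 named genes on each array, minus each gene's mean over the 6 arrays, with Tfrc, the 3 genes most like it (Tuba1b, Hprt, G6pd2) and B2m in colour and the other 10 in grey. Tfrc and Tuba1b lie above the other genes on the prenatal arrays and below them on the adult arrays, and B2m lies the opposite way.

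Probes without a gene name came closer. ASMM10P032218, at a distance of 0.042, had log2 signals of 5.47, 5.52 and 5.30 on prenatal replicates 1, 2 and 3, and 1.98, 1.73 and 1.55 on adult replicates 1, 2 and 3. ASMM10P051733, at 0.074, had 4.30, 4.24 and 3.92 before birth and 0.66, 0.41 and 0.15 in the adult. Both probes, like Tfrc, were lower on every adult than on every prenatal array, and lowest on adult replicate 3. As both were picked for the smallest distance to Tfrc on these arrays, this likeness largely follows from the choice. Of 32249 other probes with a value on every array, 40 lay within 0.25 of Tfrc and 351 (1.09%) within 0.5, against a median distance of 1.91. What these probes share with Tfrc beyond their values on 6 arrays is not given in the files.

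Tfrc relative to the other reference genes gave a lower adult level with each of them. Of 20 reference genes listed, 10 besides Tfrc had a named probe. Relative to the mean of these 10, the log2 difference of Tfrc was -3.59. In that mean, the large and opposite log2 differences of B2m (2.75) and Tuba1b (-2.79) offset each other. Relative to Gapdh, a glycolytic enzyme, it was -3.72 and relative to Ppia, a peptidyl-prolyl isomerase, -3.67. Hprt gave -3.05, Rpl13a, a ribosomal protein gene, -3.24, Tbp, the TATA-binding protein, -3.31 and Actb, cytoplasmic actin, -3.32. Gusb, a lysosomal glucuronidase, gave -4.01 and Hsp90ab1, a cytosolic chaperone, -4.40. Only B2m and Tuba1b, which differed most between the ages themselves, moved the value farther, to -6.37 and -0.83. The size of the Tfrc change therefore depended on the reference gene. Its direction among these 10 was fixed in advance, because Tfrc had the lowest log2 difference of the 15 named genes.

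**Figure D5:**
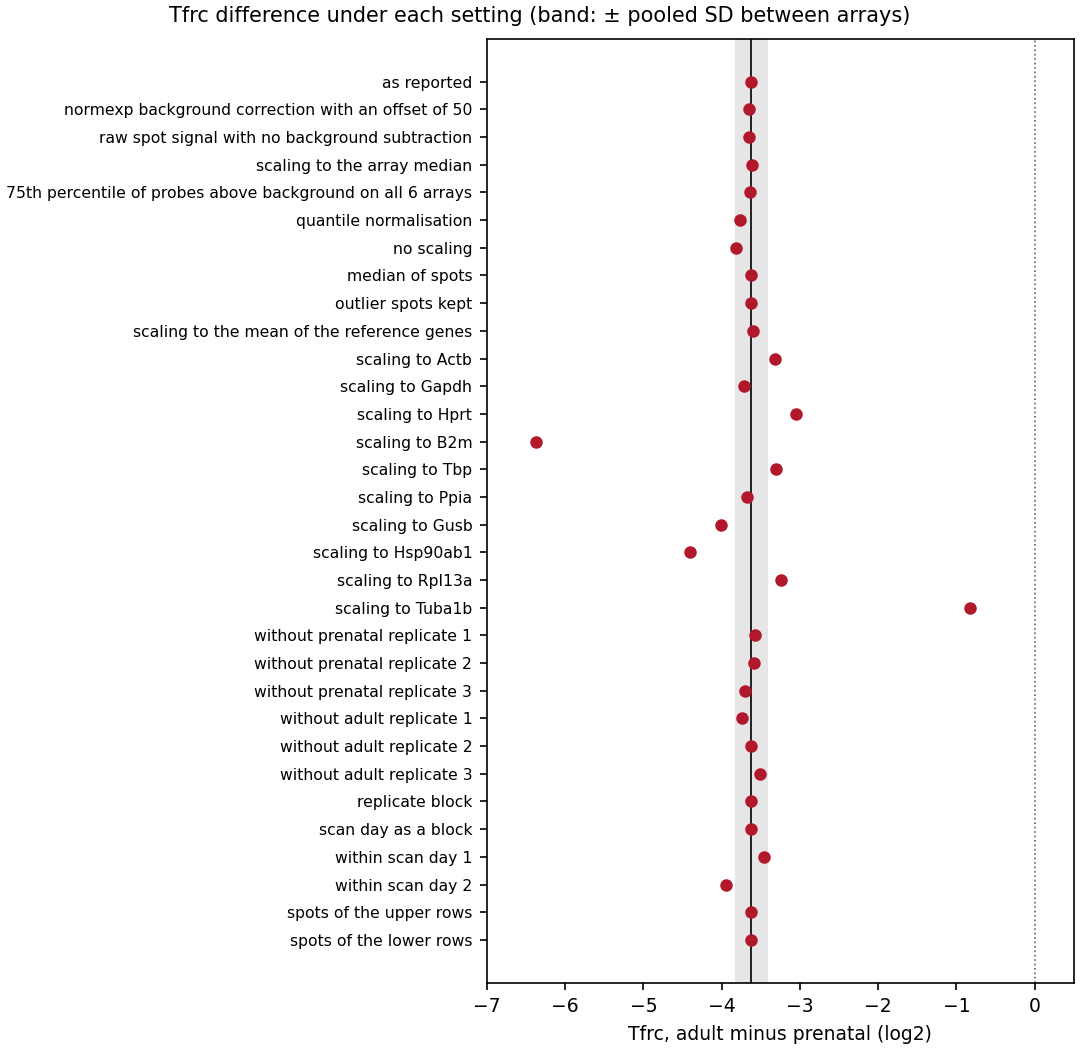
Log2 difference of Tfrc, adult minus prenatal, as reported (line at -3.62) and under each other background correction, scaling, reference gene, spot set, left-out array and scan day; the grey band is ± the pooled SD of 0.19 and the dotted line marks 0. All points lie below 0, from -6.37 relative to B2m to -0.83 relative to Tuba1b.

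Without prenatal replicate 1, the array least like its group, the log2 difference was -3.58. The scanner output gives 2 scan days. Within the first, with 2 arrays of each group, the difference was -3.46, and within the second, with 1 array of each group, -3.94. Of 10 control probes named E1A_r60, E1A_r60_a107 and E1A_r60_a97 differed between the ages without overlap. The median processed signal of E1A_r60_a107, before scaling, was 14549, 2827 and 3616 on prenatal replicates 1, 2 and 3, against 14.3, 58.9 and 54.0 on adult replicates 1, 2 and 3. That of E1A_r60_a97 was 74.6, 56.9 and 61.7 against 3.77, 15.5 and 17.5. Most spots of both were not well above background on adult replicate 1, so no mean difference is given. The other 8 had log2 differences of -0.24 to 0.41, and most of their spots were not well above background on any array, except for E1A_r60_3. The log2 signal of control probe Mouse-PGK1_5 minus that of Mouse-PGK1_3 was -7.86, -6.96 and -6.95 before birth against -7.61, -8.33 and -8.20 in adults, so the groups overlapped. For Mouse-GAPDH_5 minus Mouse-GAPDH_3 the groups overlapped too, with means of -2.74 and -2.84. The part of these control signals in the Tfrc result was not tested.

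No other gene of iron supply or red cell formation could be read beside Tfrc. Of 29 genes listed for iron uptake and handling, which include the transferrin gene Trf, the hepatic receptor Tfr2 and the hormone gene Hamp, 1 had a named probe, Tfrc itself. None of 9 genes of haem synthesis had a named probe, and of 20 erythroid genes, the globins and Gata1 among them, Tfrc alone had one. The lists of hepatocyte, macrophage, lymphocyte, endothelial, stellate, biliary and proliferation markers had no named probe either. The liver label was therefore not checked against other markers. Whether the Tfrc signal came from erythroid cells was not tested, nor was a part of proliferating or other cells in the result.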

How the data were processed

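The authors deposited scanner output of 6 arrays, in which the processed signal is a background-subtracted spot intensity on a linear scale, and Agilent Feature Extraction (version 11.0.1.1) is named in the submitters' processing notes. The authors' deposited table of processed values holds no Tfrc row and was not used. Groups and replicate numbers came from the sample titles. Signals were taken as log2, the array's own 75th percentile over spots that the files do not mark as controls was subtracted, and a probe's spots were averaged after those with an outlier flag had been dropped. Probes well above background on at least 3 of 6 arrays (32336) were tested two-sided in R 4.3.3 with lmFit and eBayes of limma 3.58.1, at an adjusted p under 0.05 by Benjamini-Hochberg over all of them. The fit was tested on simulated data. Accessions were matched without version to a RefSeq gene table of GRCm38.p6, which named all 15 probes. The array design names another build, so no probe position is given. The promoter stretch is from RefSeq (GRCm38.p6). The gene and the lists were chosen with earlier results of these data known. The genes named are Tfrc, the 3 named genes and 2 unnamed probes with the smallest distance to it, and the reference genes; B2m and the control probes were added after their values were seen.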

Additional observations from a re-analysis of the deposited data

How the results depend on the processing

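Tfrc was lower in adult liver under all 29 alternatives that could move its value, which reuse the same 6 arrays, and 20 of them moved the log2 difference of -3.62 by less than the pooled SD between arrays. The others were the second scan day (-3.94) and scaling to Actb (-3.32), Hprt (-3.05), B2m (-6.37), Tbp (-3.31), Gusb (-4.01), Hsp90ab1 (-4.40), Rpl13a (-3.24) and Tuba1b (-0.83). With the reference genes the lower adult level was fixed in advance, as no other named gene had a lower log2 difference than Tfrc. Leaving out each array gave -3.74 to -3.51. The split into upper and lower spots was chosen after seeing the data. The share of probes with a lower difference than Tfrc was 2.45%. It was 0.622% with a normexp correction and an offset of 50, which shrinks the differences of dim probes by construction, 1.19% among probes above background on all 6 arrays, 1.32% with no filter, and 1.95% to 3.02% without each array. The limma count of 8987 called probes was 5957 when only probes above background on all 6 arrays were tested and 5313 to 11561 without each array, with 5697, 5313 and 5387 without adult replicates 1, 2 and 3. It was 4505 in the fit with a replicate block (the shared replicate number) and 11599 with the scan day as a block. In this balanced design neither block can move the Tfrc difference. Deviations of same-numbered arrays correlated at -0.53, -0.35 and -0.31, and 0 of 6 arrays correlated best with its own number. With 3 arrays per group, and scan days that cross the replicate numbers, this cannot decide whether the numbers pair the samples. The cause of these shifts was not tested. Signal over background did not limit Tfrc, whose spots were all well above it.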
